A study of Bos taurus with 21 samples.

Results

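Genes of triacylglycerol assembly, the route by which fatty acids are joined to glycerol to make milk fat, were examined in RNA-seq counts of cells collected from the milk of 21 Holstein cows. The members were listed by symbol for their place in this route, with earlier results of these data known. They were DGAT1, DGAT2, GPAM, AGPAT6, LPIN1 and LPL, 6 of the 7 listed genes and of 13570 gene rows in all, and the seventh, AGPAT1, was not analysed here. The labels put 9 cows in the high milk yielding group (HY) and 12 cows in the low milk yielding group (LY). All were lactating animals of 1 farm and the Holstein strain, and parity was 2 to 4 in both groups. HY cows had been in milk for 41 to 268 days (median 168) and LY cows for 52 to 270 days (median 211.5). Milk fat and milk yield are breeding values for which no unit is given. The milk fat values of HY cows lay between -10.109 and 10.928 and those of LY cows between -14.377 and -2.782. For milk yield, the trait that defines the groups, the limits were 181.118 and 468.053 for HY against -404.27 and 86.92 for LY, without overlap.

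Triacylglycerol is built on glycerol 3-phosphate mainly in the endoplasmic reticulum, and the first fatty acid can also be added at the outer mitochondrial membrane. Acyltransferases add the first and second fatty acids, a phosphatase removes the phosphate, and a diacylglycerol acyltransferase adds the third fatty acid. In the mammary epithelial cell the product is packed into lipid droplets that leave the cell as milk fat globules, while part of the fatty acids arrives from blood lipoproteins through lipoprotein lipase. Milk also carries macrophages, neutrophils and lymphocytes besides shed epithelial cells, and several of these cell types use the same enzymes.

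Each cow gave between 7878557 and 28541904 counts on genes (medians 11669815 for HY and 12705797 for LY). The 4 casein genes CSN1S1, CSN1S2, CSN2 and CSN3, which encode the main milk proteins, took between 0.0876% and 44.2% of the counts of a cow. The median casein share was 4.34% among HY cows and 11.04% among LY cows, and 4 cows (HY replicates 1, 4 and 7 and LY replicate 12) had a share of 0.370% or less, against 1.64% or more in the other 17. Markers of the cell types of milk were present. All genes analysed of the neutrophil (9 of 10 listed), macrophage (8 of 10) and T cell (9 of 9) lists were counted in every cow. CSF3R, MRC1 and MARCO of these lists were not analysed. In the mammary epithelium list 10 of 11 genes were counted in every cow, KRT14 being at 0 in some cows. In these bulk samples, fewer cells of a type and less RNA per cell cannot be told apart. Milk fat and milk yield were themselves related (r = 0.721 by Pearson, rho = 0.731 by Spearman, with permutation p of 0.00033 and 0.00031). Without the 2 cows with the most distant milk yield r was 0.696, and it was -0.153 within HY and 0.598 within LY. By the study's own values, 16 cows had a mapping rate under 85%, and r was 0.674 among them.

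Expression is given as CPM, the count of a gene relative to the TMM-scaled total of its library, and tested as log2(CPM + 0.25). GPAM encodes the mitochondrial glycerol-3-phosphate acyltransferase, which adds the first fatty acid. It varied the most of the members. In HY its lowest level was 6.76 CPM, its median 67.4 and its highest 2561, and in LY these were 5.12, 102 and 962. The lowest cow was LY replicate 12 with 114 counts, the highest was HY replicate 9, and between them lay a 500.5-fold range, which was 142-fold without these 2 cows. The SD of log2 expression over the 21 cows was 2.51, which ranked 14 among 7146 genes whose lowest count in any cow was 10 or more, where the median SD was 0.613.

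AGPAT6 is the older symbol of GPAT4, a glycerol-3-phosphate acyltransferase of the endoplasmic reticulum. Its level ran from 49.5 CPM over a median of 122 to 376 in HY, and from 50.9 over 122 to 1052 in LY. A single cow, LY replicate 12, stood 2.80-fold above the next highest cow of either group. The medians of both groups were nearly the same and their ranges overlapped.

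LPIN1 encodes lipin 1, the phosphatidate phosphatase that supplies diacylglycerol. It was counted at 27 to 349 reads per cow, and at 27 reads counting error alone has a coefficient of variation of 19.2%. HY cows had 7.06 to 31.8 CPM with a median of 10.8, and LY cows had 1.81 to 17.6 CPM with a median of 7.52. HY replicate 9 was the highest cow and LY replicate 4 the lowest, and the other cows overlapped.

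DGAT1 and DGAT2 encode unrelated enzymes for the last step. DGAT1 was counted at 39 to 872 reads per cow. Its level was 6.98, 10.2 and 31.8 CPM (lowest, median, highest) in HY and 7.98, 11.3 and 39.1 CPM in LY. The 2 highest cows were LY replicate 12 and HY replicate 7, 2 of the 4 cows with the lowest casein share, and no other cow exceeded 18.4 CPM. With an SD of 0.613 in log2 expression DGAT1 ranked 3569 of the 7146 genes, so its spread was that of the median gene.

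DGAT2 was more variable, with an SD of 1.23 and rank 291. Its levels were 21.4, 134 and 447 CPM in HY and 61.8, 127 and 783 CPM in LY. HY replicates 5 and 9 were the lowest, at 22.4 and 21.4 CPM, and LY replicate 10 was the highest.

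LPL encodes lipoprotein lipase, which releases fatty acids from circulating lipoproteins for uptake. It was measured at 266 to 1690 CPM in HY, with a median of 828, and at 50.0 to 880 CPM in LY, with a median of 602. LY replicate 12, the highest cow for DGAT1 and AGPAT6, was the lowest for LPL and for GPAM. The second lowest cow for LPL was HY replicate 1, at 266 CPM.

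**Figure D1:**
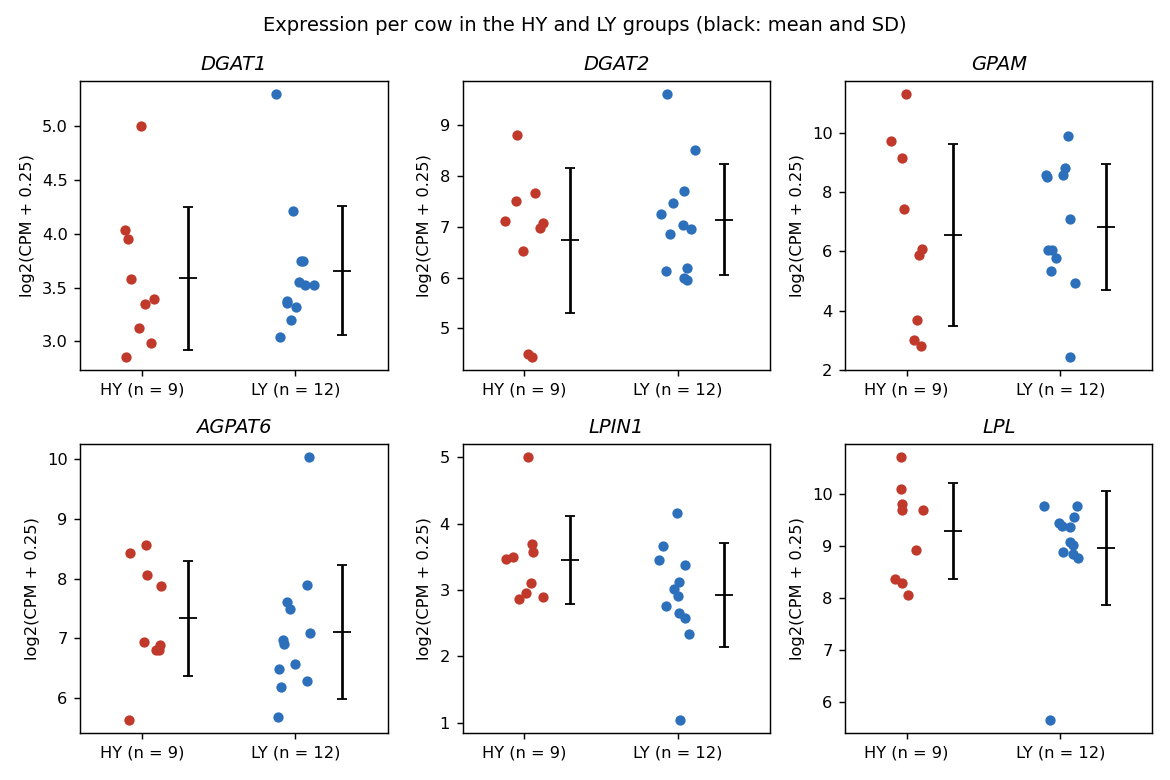
Expression of the 6 genes as log2(CPM + 0.25) in each cow, HY (red, 9 cows) beside LY (blue, 12 cows), with the group mean and SD in black. The groups overlap for every gene, and LY replicate 12 is the separate low point for LPL and the separate high point for AGPAT6.

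The first question was whether any of these genes differed between the groups that the labels define. By the edgeR quasi-likelihood test 0 of the 6 genes had an adjusted p under 0.05, and over all 12333 genes tested 0% did (4.7% at an unadjusted p under 0.05, none of them a member). DESeq2 called 1 gene, which was not a member. LPIN1 had the lowest p of the 6, and its log2 expression averaged 3.45 ± 0.661 (SD, n = 9) among HY cows against 2.92 ± 0.780 (SD, n = 12) among LY cows. A two-sided exact permutation test, over all 293930 divisions of the cows into 9 and 12, gave p = 0.121 for LPIN1, and edgeR gave a log2 fold change of 0.532 with adjusted p = 0.999. Without HY replicate 9 this log2 fold change was 0.193. GPAM had a log2 fold change of 0.967 in edgeR, which compares the means of the counts, while its mean log2 expression was lower in HY (6.57 ± 3.08, SD, n = 9) than in LY (6.84 ± 2.13, SD, n = 12), with exact permutation p = 0.812. Without HY replicate 9 the edgeR value was -0.169. The exact permutation p was 0.793 for DGAT1, 0.469 for DGAT2, 0.634 for AGPAT6 and 0.526 for LPL.

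Next, each gene was regressed on milk fat, the trait to which these enzymes lead. At an adjusted p under 0.05, 0 of the 6 genes were called, and 0 had an unadjusted p under 0.05. Over all genes the shares were 0% and 2.3%. edgeR and DESeq2 called 0 of the 6 genes at either threshold. DGAT1 had a slope of 0.1375 log2 units per 10 units of milk fat (SE 0.205), less than its standard error, with Pearson r = 0.152 (permutation p = 0.5165) and Spearman rho = 0.0896 (permutation p = 0.699). LPIN1 had the highest r, 0.239 (permutation p = 0.2999, rho = 0.186, p = 0.419). For DGAT2, GPAM, AGPAT6 and LPL, r was -0.0804, -0.104, 0.186 and -0.117, with permutation p of 0.423 or more, and every adjusted p was 0.9997. The r of DGAT1 was 0.219 without the 2 most distant cows, 0.299 within HY, 0.285 within LY and 0.265 among the 16 cows of lower mapping rate. Within LY it was -0.115 without LY replicate 12. These are the values of a design of 21 cows, and a slope of the size seen for DGAT1 was not distinguishable from 0.

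AGPAT6 went in opposite directions in the groups, with r = -0.302 within HY and 0.582 within LY. Its slope per 10 units of milk fat was -0.507 in HY and 1.70 in LY. The difference of -2.21 (SE 0.965) had p = 0.0354 in the interaction test over the 21 cows, and an adjusted p of 0.9995 over all genes. It is therefore not a called difference. Without LY replicate 12, the cow with the highest AGPAT6 level, the slope in LY was 0.904 and the difference -1.45 (SE 0.812, p = 0.0938 over 20 cows).

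For milk yield the outcome was the same, with 0 of the 6 genes called and 0 at an unadjusted p under 0.05, against 0% and 2.49% of all genes. edgeR called 13 genes and DESeq2 called 0, none of them a member. DGAT1 had r = -0.0618 (permutation p = 0.790) and rho = -0.0766 (permutation p = 0.7425). LPIN1 again had the highest r, 0.254 (permutation p = 0.271, rho = 0.351, p = 0.118). The other 4 genes had r between -0.176 for GPAM and 0.0527 for AGPAT6. Within HY, r was -0.562 for DGAT1, -0.433 for DGAT2 and -0.682 for AGPAT6, and within LY it was 0.273, 0.518 and 0.158. The difference between the slopes of HY and LY had an unadjusted p of 0.0633, 0.0499 and 0.0787 for these 3 genes and an adjusted p of 0.985 for each. Without LY replicate 12 these p were 0.0310, 0.0628 and 0.0348, with an adjusted p of 0.997 for each.

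Lactation period was related to more genes at the unadjusted threshold, 20.3% of all, but to 0% after adjustment, and 0 of the 6 members passed either threshold. DGAT2 came nearest. Its slope was 0.514 log2 units per 100 days (SE 0.328), with r = 0.338 (permutation p = 0.133) and rho = 0.327 (permutation p = 0.147). Its adjusted p was 0.375 in the regression, 0.1695 in edgeR and 0.0867 in DESeq2, and its unadjusted p was 0.0263 in edgeR and 0.0123 in DESeq2. Of the 12333 genes, edgeR called 3 and DESeq2 called 865, and neither list held a member. DGAT1 had r = -0.0317, AGPAT6 -0.0323 and LPIN1 0.0282, and for GPAM and LPL it was -0.198 and -0.243. LPL, measured well in every cow at 1113 counts or more, had adjusted p = 0.532.

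**Figure D2:**
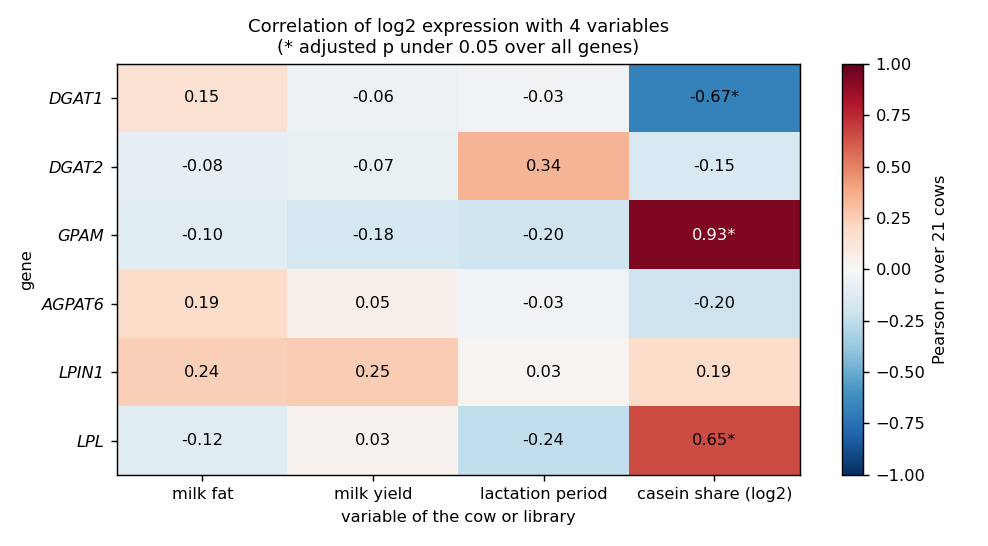
Pearson r between log2 expression of each gene (rows) and milk fat, milk yield, lactation period and log2 casein share (columns) over 21 cows, with red for positive and blue for negative values. Only the 3 asterisks in the casein share column, for DGAT1 (-0.67), GPAM (0.93) and LPL (0.65), mark an adjusted p under 0.05 over all genes.

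The casein share of the library is a property of the sample and not of the cow's breeding value. With it, 3 of the 6 genes were called, GPAM and LPL higher and DGAT1 lower, where 18.1% of all genes were called (8.79% higher and 9.32% lower). GPAM, the first acyltransferase, was 0.832 log2 units higher per doubling of casein share (SE 0.0745, n = 21 cows, adjusted p = 2.26e-07). LPL was 0.235 log2 units higher (SE 0.0630, adjusted p = 0.0142), and DGAT1 was lower, with a slope of -0.147 (SE 0.0369, adjusted p = 0.009995). Casein share was not detectably related to milk fat (r = -0.312, permutation p = 0.169, rho = -0.148, p = 0.52) or to milk yield (r = -0.281, permutation p = 0.219, rho = -0.197, p = 0.391). With the 2 most distant cows left out these r were -0.0699 and -0.182.

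GPAM followed casein share over its whole range. The 4 cows with the lowest share had 5.12 to 12.7 CPM and the 4 with the highest share, HY replicates 6, 8 and 9 and LY replicate 6, had 380 to 2561 CPM. Pearson r was 0.932 and Spearman rho 0.939, both with permutation p = 1e-05, the smallest that 100000 resamples can give. It was 0.919 without the 2 most distant cows, 0.957 within HY, 0.918 within LY and 0.930 among the 16 cows of lower mapping rate. In the 17 cows with a casein share over 1%, a set chosen after seeing the data, r was 0.871 and the adjusted p 0.000648. With each cow left out in turn the slope stayed between 0.798 and 0.876.

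DGAT1 ran the other way, but leaned on few cows. Pearson r was -0.675 (permutation p = 0.00128) and Spearman rho was -0.50 (permutation p = 0.02235, adjusted p = 0.0952 over all genes). LY replicate 12 at 39.1 CPM, HY replicate 7 at 31.8 and HY replicate 1 at 16.2 had a casein share under 0.17%, while HY replicate 4 with a share of 0.370% had 9.91 CPM. Among the 17 cows with a share over 1%, DGAT1 lay between 6.98 and 18.4 CPM. There r was -0.283 with an adjusted p of 0.545, and 4.44% of all genes were called. The call of DGAT1 was thus lost without the 4 cows of lowest share. The slope was -0.107 without LY replicate 12 (adjusted p = 0.0467) and -0.121 without HY replicate 7 (adjusted p = 0.0497). Within the 16 cows of lower mapping rate r was -0.607 and the adjusted p 0.0922, and r was -0.617 within HY and -0.831 within LY, the latter -0.547 without LY replicate 12.

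LPL had r = 0.651 (permutation p = 0.00078) and rho = 0.617 (permutation p = 0.00338). LY replicate 12 at 50.0 CPM weighed on this slope, which was 0.1498 without it (adjusted p = 0.0357). In the 17 cows with a casein share over 1% r was 0.495 (adjusted p = 0.254), and in the 16 cows of lower mapping rate it was 0.617 (adjusted p = 0.0845). Within HY r was 0.726 and within LY 0.757, the latter 0.246 without LY replicate 12.

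DGAT2, AGPAT6 and LPIN1 were not called. DGAT2 had r = -0.154 (permutation p = 0.506, rho = -0.2195, p = 0.338), and LPIN1 had r = 0.187 (permutation p = 0.415, rho = 0.138, p = 0.551). AGPAT6 had r = -0.204 (permutation p = 0.376), yet rho was 0.0818 (permutation p = 0.724) and the slope turned to 0.0231 without LY replicate 12. The 2 glycerol-3-phosphate acyltransferases among the members differed in their relation to casein share. The ratio of GPAM to AGPAT6, which does not depend on the scaling of the library, rose by 0.907 log2 units per doubling (SE 0.0882, r = 0.921, permutation p = 1e-05, rho = 0.912, p = 1e-05). The 2 diacylglycerol acyltransferases did not separate in this way. The ratio of DGAT1 to DGAT2 had a slope of -0.0797 (SE 0.0878, r = -0.204, permutation p = 0.375, rho = -0.131, p = 0.570). The ratio of DGAT1 to LPL fell with a slope of -0.382 (SE 0.0858, r = -0.715, permutation p = 0.00024, rho = -0.690, p = 0.00086). Over the 15 ratios of members tested, the adjusted p of r was 3e-05 for GPAM over AGPAT6, 0.433 for DGAT1 over DGAT2 and 0.00060 for DGAT1 over LPL. With the 2 most distant cows left out, these ratios had r of 0.906, -0.141 and -0.650.

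**Figure D3:**
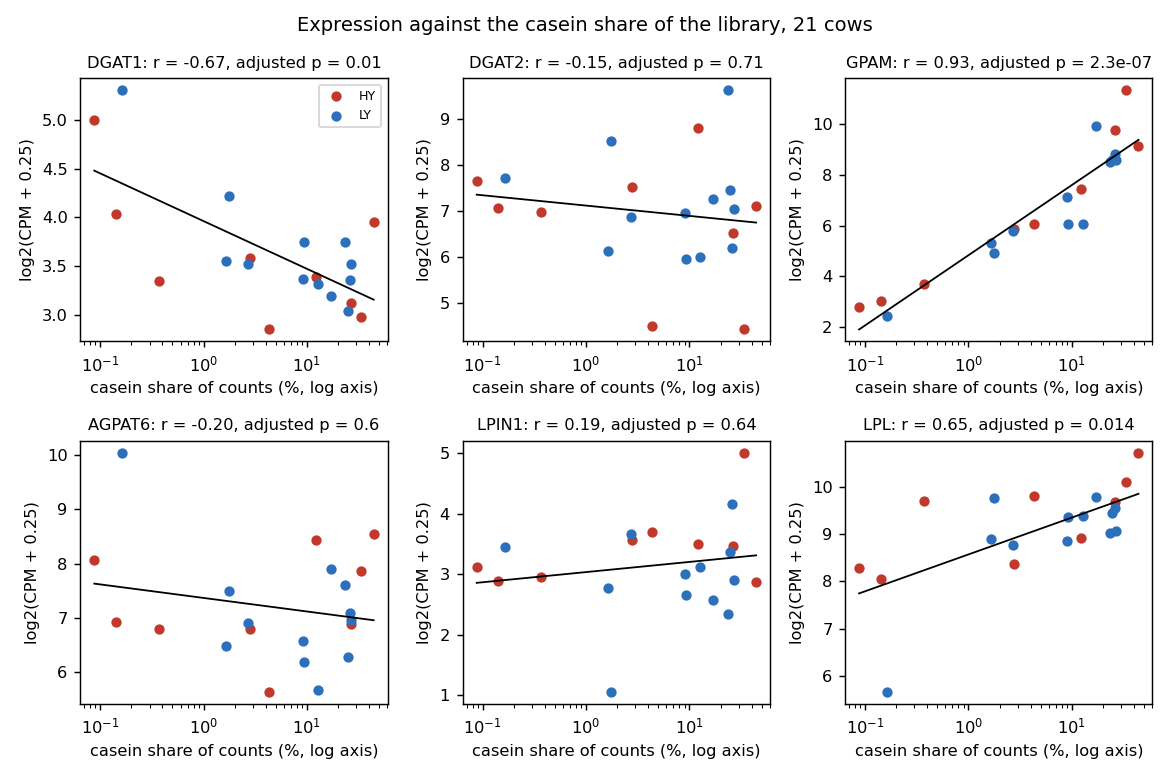
Log2(CPM + 0.25) of each gene (vertical axis) against the casein share of counts in percent (horizontal log axis), 1 point per cow, HY in red and LY in blue, with the fitted line. GPAM climbs along the whole axis, while the high DGAT1 points are at the left end, below a share of 0.17%.

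Of the 15 pairs of members, 4 had an adjusted p under 0.05 over all genes, and DGAT2 and LPIN1 were in none of them. With DGAT1, GPAM, AGPAT6 and LPL as the variable in turn, 17.6%, 24.9%, 17.8% and 12.8% of all other genes were called, and with DGAT2 and LPIN1 2.42% and 0%. DGAT1 was opposed to GPAM (r = -0.661, permutation p = 0.00056, rho = -0.634, p = 0.00251) and to LPL (r = -0.685, permutation p = 0.00241, rho = -0.571, p = 0.00791). It went with AGPAT6 (r = 0.640, permutation p = 0.00286, rho = 0.449, p = 0.0419), and GPAM went with LPL (r = 0.645, permutation p = 0.00051, rho = 0.648, p = 0.00205). The pairs of DGAT1 with LPL and with AGPAT6 leaned on LY replicate 12, without which r was -0.405 and 0.408. Without the 2 cows most distant in AGPAT6, r of DGAT1 with AGPAT6 was 0.366. DGAT1 and GPAM kept r = -0.580 and GPAM and LPL r = 0.589 without LY replicate 12. Both enzymes of the last step had r = 0.454 with each other (permutation p = 0.0393, adjusted p = 0.135 over all genes in the regression on DGAT1, rho = 0.561, p = 0.00889). DGAT2 and LPIN1 had r = -0.565, which was -0.298 without the 2 cows most distant in LPIN1, and a rho of -0.349. Within HY, within LY and within the 16 cows of lower mapping rate the 4 called pairs kept the sign of r, which lay between -0.8135 and -0.462 for the opposed pairs and between 0.447 and 0.795 for the others.

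The genes most like each member over the 21 cows were found among the 7145 others of the same count minimum. For DGAT1 they included RING1 (r = 0.928), RAB4B (0.919), EMD (0.902) and RNF220 (0.898). For DGAT2 they were S100A9 (0.927), NFE2 (0.909) and VAT1L (0.900), and S100A9 is a calcium-binding protein abundant in neutrophils. For GPAM they were TOM1L1 (0.984), ECHDC1 (0.983) and FABP3 (0.980), the last a fatty acid binding protein. For AGPAT6 they were C17H22orf13 (0.916), YPEL3 (0.893) and CYHR1 (0.892). LPL was most like MRPL19 (0.901), MPHOSPH6 (0.889) and TMEM220 (0.885). LPIN1 had no such close partner, its best being COPA (0.736), CLIC4 (0.726) and AHCYL2 (0.716). These r are the highest among the 7145 genes. They were not computed on ranks or without LY replicate 12, the cow that stood apart for AGPAT6 and LPL.

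DGAT1 overlaps HSF1, the gene of heat shock factor 1, in the RefSeq annotation of the ARS-UCD2.0 assembly, and it is not stated whether the counting used strand. HSF1 was counted at 50 to 1350 reads per cow and had r = 0.756 with DGAT1 (permutation p = 8e-05, rho = 0.697, permutation p = 0.00076, r = 0.647 without the 2 most distant cows). HSF1 was also lower with casein share (r = -0.631, adjusted p = 0.0189). Reads of the overlap cannot be told apart, which leaves the DGAT1 values uncertain to an unknown extent. LPIN1 overlaps a long non-coding RNA in the same annotation, with the same limit.

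Marker genes of the cell types of milk moved with several members. The summed level of the neutrophil list was 2231 to 21610 CPM in HY and 3981 to 19290 CPM in LY, and DGAT2 followed it (r = 0.868, permutation p = 1e-05, rho = 0.792, permutation p = 8e-05). Over the 56 relations of 8 marker lists with the members and casein share, the adjusted p was 9.33e-05 for this r. It was 0.877 without the 2 most distant cows, 0.939 within HY, 0.770 within LY and 0.891 within the 16 cows of lower mapping rate. HY replicates 5 and 9, lowest for DGAT2, were also the 2 lowest cows for the neutrophil list. The list holds S100A9, the gene most like DGAT2, so the relation of DGAT2 with that gene is not separate from this one. DGAT1 had r = 0.622 with the same list (permutation p = 0.00222, adjusted p = 0.0138, rho = 0.574, adjusted p = 0.0406), and AGPAT6 had r = 0.558 (adjusted p = 0.0408, rho = 0.438, adjusted p = 0.117), which was 0.446 without LY replicate 12. LPL had r = -0.544 (adjusted p = 0.0421, rho = -0.513, adjusted p = 0.0695) and LPIN1 r = -0.464 (adjusted p = 0.104, rho = -0.3805, adjusted p = 0.2099).

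GPAM followed the mammary epithelium list (r = 0.891, rho = 0.883, both with permutation p = 1e-05), whose summed level was 37.4 to 4258 CPM in HY and 165 to 2157 CPM in LY. It was opposed to the macrophage list (r = -0.861, rho = -0.844, both with permutation p = 1e-05), which was 1390 to 6663 CPM in HY and 1725 to 5748 CPM in LY. Within HY these r were 0.951 and -0.926, within LY 0.81 and -0.785, and without the 2 most distant cows 0.854 and -0.803. Casein share itself had r = 0.849 with the epithelium list and -0.804 with the macrophage list. LPL had r = 0.534 with the epithelium list (adjusted p = 0.0456, rho = 0.608, adjusted p = 0.0261), while DGAT1 had r = -0.377 with it (adjusted p = 0.209, rho = -0.364, adjusted p = 0.238) and 0.530 with the macrophage list (adjusted p = 0.0516, rho = 0.553, adjusted p = 0.0496). In the casein share regression, 4 of 11 epithelium genes were called higher, 4 of 8 macrophage genes analysed lower and 0 of the 9 neutrophil genes either way, where 8.79% of all genes were called higher and 9.32% lower. The part of these cell types in the relations of the members with casein share was not tested.

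The T cell list, at 56.6 to 858 CPM in HY and 82.2 to 1364 CPM in LY, had r between -0.425 (LPL) and 0.227 (DGAT1), with an adjusted p of 0.154 or more. Genes of fat cells were near 0, with LEP at 0 in every cow and a summed level of at most 2.38 CPM. This list had r = 0.393 with DGAT1 (adjusted p = 0.186, rho = 0.550, adjusted p = 0.0496) and -0.484 with GPAM (adjusted p = 0.0869, rho = -0.496, adjusted p = 0.0765). The red cell list had HBB at 0 in every cow and summed to at most 0.183 CPM. The milk proteins list, which holds the caseins and took 0.118% to 60.4% of the counts, is not independent of casein share, with which it had r = 0.985. Its r was 0.964 with GPAM (adjusted p = 9.33e-05), 0.651 with LPL (adjusted p = 0.00329) and -0.614 with DGAT1 (adjusted p = 0.0167).

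**Figure D4:**
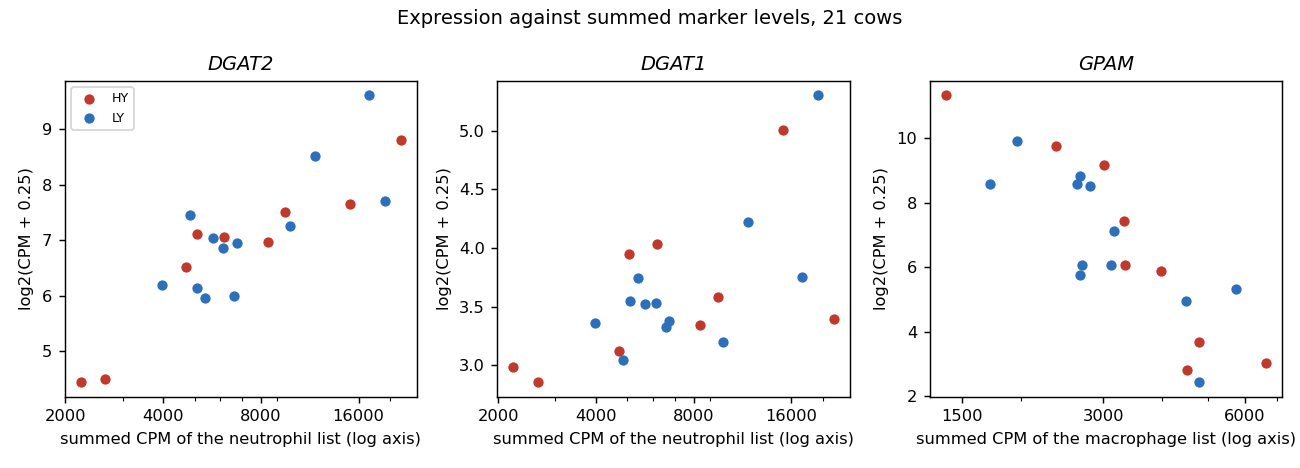
Log2(CPM + 0.25) of DGAT2 and DGAT1 against the summed CPM of the neutrophil list and of GPAM against that of the macrophage list (log axes), 1 point per cow, HY in red and LY in blue. DGAT2 rises with the neutrophil list (r = 0.868) and GPAM falls with the macrophage list (r = -0.861).

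The genes around the pathway were taken from lists of 68 genes for uptake, activation, glycerol supply, the other acyltransferases and phosphatases, lipid droplets and lipolysis, and regulators, of which 59 could be tested. With casein share 6 of the 59 were called higher and 10 lower, 27.1% against 18.1% of all genes. In the regression limited to the 7146 better counted genes, whose lowest count was 10 or more, 26.8% were called. Some of the 59, such as SLC27A4, lay below that count, and a comparison with genes of like count was not made. The median r of the 59 was -0.110 against -0.0623 over all 12333 genes. The highest were SLC27A6, a fatty acid transport protein (r = 0.924, adjusted p = 4.86e-07), FABP3 (r = 0.898, adjusted p = 4.63e-06) and PPARGC1A, a transcriptional coactivator of energy metabolism (r = 0.886, adjusted p = 9.6e-06). The lowest were MGLL, which cleaves monoacylglycerol (r = -0.783, adjusted p = 0.000889), SREBF2 (r = -0.749, adjusted p = 0.00229) and SREBF1 (r = -0.717, adjusted p = 0.00458), the latter 2 the transcription factors of sterol and fatty acid synthesis.

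SLC27A6 and PPARGC1A had no count in at least 1 cow. By list, uptake had 2 genes called higher and 2 lower of 12, 1 of the lower being SLC27A4 at 0.238 counts on average, and activation had 1 higher and 1 lower of 7. The glycerol list split, with GPD1, which makes glycerol 3-phosphate from a glycolytic intermediate, higher (r = 0.836) and GK, which makes it from glycerol, lower (r = -0.644). Of the 11 other acyltransferases and phosphatases 0 were called higher and 1 lower, AGPAT4 at 15.8 counts on average (r = -0.658). In this list 5 were lower and 0 higher at an unadjusted p under 0.05, where 17.2% of all genes were lower. The lipid droplet and lipolysis list had 1 gene higher, CIDEA (r = 0.831), and 1 lower of 15, and the regulators had 1 higher and 4 lower of 11. SLC27A4, GPD1, GK, AGPAT4 and CIDEA were named after their values were seen.

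**Figure D5:**
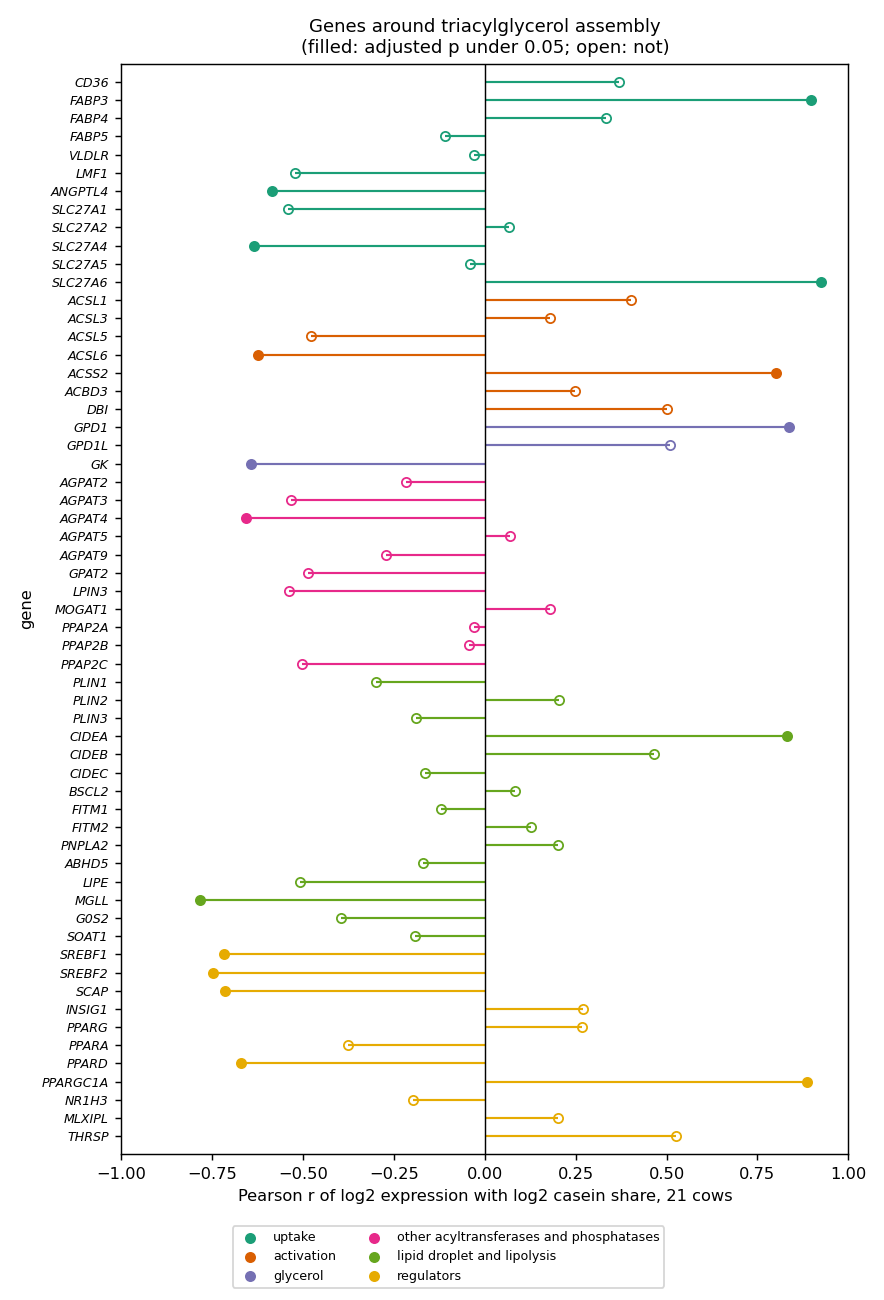
Pearson r with log2 casein share over 21 cows (horizontal axis) for the 59 tested genes around triacylglycerol assembly (vertical axis), coloured by list, with filled points for an adjusted p under 0.05 over all genes. Filled points lie on both sides of 0, 6 on the right and 10 on the left.

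With milk fat, milk yield and lactation period 0 of the 59 genes were called by the regression. At an unadjusted p under 0.05 there was 1 with milk fat, SLC27A2, another fatty acid transport protein (r = -0.649, 2.81 counts on average), and 1 with milk yield, GK (r = 0.458). With lactation period 2 of 59 were higher and 7 lower at that threshold, where 10.5% of all genes were higher and 9.88% lower. The 2 higher were CIDEC, a lipid droplet protein (r = 0.651, 4.81 counts on average), and AGPAT9, a glycerol-3-phosphate acyltransferase (r = 0.481). The lowest p among the 7 lower were those of NR1H3, the liver X receptor alpha (r = -0.652), INSIG1, which holds back the sterol regulatory proteins (r = -0.580), and FITM2, which takes part in lipid droplet formation (r = -0.565).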

How the data were processed

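RNA of milk somatic cells of 21 cows was sequenced as paired ends on an Illumina HiSeq. The authors trimmed the reads with Trimmomatic, mapped them to bosTau7 with Bowtie2 and TopHat2, and counted them with HTSeq. Tool versions and strand setting are not given in the sources used here. The deposited values are raw counts per gene and cow. Rows naming no gene (6 rows, with 0.0360% to 0.151% of the counts of a cow in the null row) were left out, and no pair of cows agreed within sampling noise (lowest chi-square per degree of freedom 33.7). Replicate numbers follow the order of deposition and name cows only.

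Counts were scaled with the TMM factors of edgeR 4.0.16 and transformed as log2(CPM + 0.25). The 12333 genes counted in 1 cow or more entered ordinary linear regression on milk fat, milk yield, lactation period and log2 casein share, with log2 expression as the response (the study modelled the trait as the response, after a screen on Spearman correlation that was not applied here), with Benjamini-Hochberg adjustment over all genes and a call at an adjusted p under 0.05. The unadjusted 0.05 is the softer threshold of the study. HY and LY were compared with the edgeR quasi-likelihood test and an exact permutation test. Correlations were tested two-sided with 100000 permutations. The 2 most distant cows left out were those farthest from the median of 1 side of a relation. That side was the trait or casein share, the second gene of a pair, or the summed level of a marker list. Cows extreme only on the other side stayed in. DESeq2 1.42.0 was an alternative, and the regression and edgeR fits were tested on simulated data. The spread of each simulated gene was the one left after a fit on casein share, and many genes were changed at once. With this setting the regression called 37% of simulated milk fat slopes of 0.7 log2 units per 10 units and 97% of slopes of 2. For milk yield it called 52% of slopes of 0.2 per 100 units and 99% of slopes of 0.5. Of HY against LY changes, edgeR called 45% at 1 log2 unit and 95% at 2. The main fits of the real data kept the spread that goes with casein share, so these rates can be too high for the members. The milk fat slope of GPAM, for example, had an SE of 0.847. Changes in the members, large ones in GPAM included, could therefore be missed. Named genes were the members, the genes most correlated with each, and of the fixed lists up to 3 per direction and variable by lowest p. The members and lists were chosen with earlier results of these data known. No coordinates or sequences are given, since the annotation used for names (ARS-UCD2.0) is of another build than the counts. Alternatives were DESeq2 size factors, totals without 7 milk protein genes, a pseudocount of 1, at least 10 counts in every cow, parity with lactation period (for lactation period, with milk yield) as covariates, subsets of cows, Spearman and robust regression. Mapping rates of the study gave the split at 85%, with 1 HY and 4 LY cows above it. Depth limits LPIN1 and DGAT1 the most, at a lowest count of 27 and 39 reads, a counting error only. One of the genes most like DGAT1 and the B cell list are not reported here.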

Additional observations from a re-analysis of the deposited data

Results flagged for a closer look

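LPIN1 in HY was picked out because its highest cow, HY replicate 9, stood apart from the other 8. Its log2 expression was 5.003 and that of the nearest cow 3.695, a gap of 0.613 of the range of the group, above the Dixon critical value of 0.493 for 9 samples. The same cow had the highest GPAM level, at 2561 CPM, and the lowest DGAT2 level, at 21.4 CPM, with a casein share of 33.6%. Of 7 measures tested in HY this was the only one, and chance picks out about 1 group in 20. LY, with 12 cows, was too large for this test.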

How the results depend on the processing

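No paired analysis was possible because the replicate numbers were given in accession order and pair no cows of HY with cows of LY. With casein share, edgeR called 20.1% and DESeq2 22.8% of all genes, and the regression after the count filter called 26.8% of its 7146. DESeq2 size factors, milk protein genes left out, a pseudocount of 1, covariates and robust regression called 17.8% to 19.3%. Of the members, 3 were called by the regression, under each of these settings and with each cow left out in turn (3 to 3). The number was 2 within LY, with Spearman and with casein share in percent, where 7.09%, 18.2% and 16.3% of all genes were called, against 18.1% in the regression of all cows. It was 1, GPAM, with a mapping rate under 85%, 1 within HY, and 1 in the 17 cows with a casein share over 1%, where 9.09%, 1.77% and 4.44% of all genes were called. The cause was not tested. The counts of 0 members called for milk fat, milk yield, lactation period and HY against LY held in every alternative run. Casein share as a covariate, the set of 17 cows and the slopes within LY without LY replicate 12 were chosen after seeing the data.

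Of 360 member values under alternatives, 302 kept direction and side of the threshold, 9 lost the call and 49 changed sign, all 49 from values that were not called. Of the 49, 2 had an unadjusted p under 0.05, GPAM against milk fat with casein share as a covariate and AGPAT6 against milk yield within HY, and the cause was not tested. Log2 slopes that changed sign against milk fat were those with casein share as a covariate (DGAT1 -0.0588, GPAM 0.767, LPL 0.143), with edgeR (GPAM 0.92, LPL 0.00266), with DESeq2 (GPAM 0.9245, LPL 0.00236), within HY (AGPAT6 -0.507), within LY (DGAT2 1.18, LPIN1 -0.137) and with Spearman (DGAT2 rho 0.0948). Leaving out each cow in turn gave -0.0177 to 0.1945 for DGAT1, -0.322 to 0.0175 for DGAT2 and -0.714 to 0.0573 for GPAM.

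Against milk yield they were those with a mapping rate under 85% (DGAT1 0.00644), within LY (DGAT1 0.103, DGAT2 0.3565, LPIN1 -0.108, LPL -0.251), within HY (AGPAT6 -0.617), with edgeR (DGAT2 0.0298, GPAM 0.0568, AGPAT6 -0.0077), with DESeq2 (DGAT2 0.0316, GPAM 0.0573, AGPAT6 -0.00894), with casein share as a covariate (GPAM 0.0887, AGPAT6 -0.00189) and with Spearman (DGAT2 rho 0.0468, LPL rho -0.0182). Leaving out each cow in turn gave -0.033 to 0.0123 for DGAT1, -0.0735 to 0.0533 for DGAT2, -0.0114 to 0.0827 for AGPAT6 and -0.0159 to 0.0373 for LPL.

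Against lactation period they were those with DESeq2 size factors (DGAT1 0.0021), with covariates (DGAT1 0.00677, LPIN1 -0.0359), within LY (DGAT1 0.0788, AGPAT6 0.0951), with edgeR (DGAT1 0.0377, AGPAT6 0.166, LPIN1 -0.074), with DESeq2 (DGAT1 0.0706, AGPAT6 0.191, LPIN1 -0.0578) and with a mapping rate under 85% (LPIN1 -0.0815). Leaving out each cow in turn gave -0.073 to 0.0257 for DGAT1, -0.151 to 0.0787 for AGPAT6 and -0.022 to 0.136 for LPIN1, which was -3.52e-05 without HY replicate 1.

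Against casein share they were those with edgeR (DGAT2 0.0159), DESeq2 (DGAT2 0.027), a mapping rate under 85% (AGPAT6 0.0235), within HY (AGPAT6 0.0651), in the 17 cows (AGPAT6 0.1965), with casein share in percent (AGPAT6 0.0104), Spearman (AGPAT6 rho 0.0818) and without LY replicate 12 (AGPAT6 -0.102 to 0.0231 over all cows left out). Log2 fold changes of HY over LY that changed sign were those with a mapping rate under 85% (DGAT1 0.207, AGPAT6 0.575), with casein share as a covariate (AGPAT6 0.125) and with 1 cow left out. These last ran from -0.345 to 0.195 for DGAT1 and from -0.261 to 0.627 for AGPAT6, both highest without LY replicate 12, from -0.761 to 0.139 for DGAT2, highest without LY replicate 10, and from -0.1685 to 1.37 for GPAM, lowest without HY replicate 9.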

Other observations

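GPAM was followed against milk fat with log2 casein share as a covariate, a model chosen after seeing the data. Its slope was then 0.767 log2 units per 10 units of milk fat, with an unadjusted p of 0.01397 and an adjusted p of 0.986 in the regression over all genes, where 414 genes had an unadjusted p under 0.05 and 0 were called. Without the covariate the slope was -0.386 (SE 0.847). In the comparison of HY and LY the same covariate gave a log2 fold change of 0.777 for GPAM in edgeR, with an unadjusted p of 0.0508.

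The slopes of HY and LY against the 4 variables were compared in 24 tests, and in 0 of these was the adjusted p under 0.05 over all genes. At an unadjusted p under 0.05 there were AGPAT6 with milk fat (p = 0.0354), AGPAT6 with casein share (p = 0.0377) and DGAT2 with milk yield (p = 0.0499). Of all 12333 genes, 266 had such a p with milk fat, 494 with milk yield, 157 with lactation period and 592 with casein share. The slope of AGPAT6 with casein share was 0.0651 in HY and -0.300 in LY, the latter with LY replicate 12 at 1052 CPM. Without this cow the slope in LY was 0.0243 and the difference had p = 0.822 over 20 cows, and AGPAT6 with milk fat had p = 0.0938 and DGAT2 with milk yield p = 0.0628. In the same run the differences of DGAT1 (p = 0.0310) and AGPAT6 (p = 0.0348) with milk yield came under 0.05, each with an adjusted p of 0.997.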
